A study of Mus musculus with 4 samples.

Results

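Expression of the Wnt signaling pathway was examined in 65 of the 21829 genes measured in sorted mouse retina. The members were chosen by name and without a cut on their values, but with earlier results of these data known. Of them, 46 genes came from a list of receptors, antagonists, transducers and nuclear effectors, and 19 were Wnt ligands recognized by symbol. RNA-seq had been done on 4 libraries from the retinas of a transgenic mouse, in which 2.5 kb of the Hes1 promoter drives destabilized EGFP. Cells were sorted at postnatal day 1 (P1) and day 4 (P4) into EGFP-positive cells (pHes1_EPC) and EGFP-negative cells (pHes1_ENC). The strain label of every library is FVB/N, all mice carried the transgene and were untreated, and the labels set the groups apart by fraction and age alone. The promoter fragment and the stability of the EGFP define the fractions, and how many retinas went into each library is not given in the sources used here. Each group is 1 library, so the values below are descriptions, without a test between groups.

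Wnt proteins are secreted lipid-modified ligands that bind Frizzled receptors on the cell surface. With the co-receptors Lrp5 or Lrp6 they stop the destruction complex of Apc, Axin and Gsk3b from degrading beta-catenin (Ctnnb1), which then enters the nucleus and acts on target genes with the TCF/LEF factors, whereas the receptors Ror1, Ror2 and Ryk carry other Wnt responses. Secreted Frizzled-related proteins (Sfrp), Dickkopf proteins (Dkk) and Wif1 act outside the cell on ligands or co-receptors, and R-spondins bound to Lgr receptors keep the ligases Znrf3 and Rnf43 from removing Frizzled. In the retina, Frizzled and Sfrp genes are known from progenitors and Müller glia, and Wnt signaling is known from the ciliary margin and from vessel growth.

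Levels are given as FPKM, fragments scaled to transcript length and to the mapped fragments of a library, which can therefore be set side by side between genes. Differences between fractions are on the log2(FPKM + 1) scale, pHes1_EPC minus pHes1_ENC, and a gene is called higher or lower when its difference passes 1 or -1, a 2-fold change that the added 1 makes harder to reach for low genes. Ratios are of FPKM, and the range after a ratio is set by the 95% intervals of Cufflinks, which cover counting error only. The 4 libraries were alike in how many genes reached an FPKM of 1, which was 11459 to 12109. Hes1, whose promoter drives the EGFP, was at 16.6 in pHes1_ENC and 105 in pHes1_EPC at P1, and at 3.59 and 93.5 at P4. Of 11 Müller glia markers, 8 were higher in pHes1_EPC at P1 and 9 at P4, and of 12 retinal progenitor markers 10 and 11 were. The Müller glia marker Clu was instead lower in pHes1_EPC at P1 (3.33 in pHes1_ENC and 0.997 in pHes1_EPC, difference -1.12). Rod markers were lower in pHes1_EPC (6 of 7 at P1 and 7 of 7 at P4). Hes1 is itself on the progenitor list, and its calls there follow from the sort. Dkk3 and Sfrp2 are members of the Müller glia and the progenitor list. Fewer cells of a type and less RNA per cell cannot be told apart in such sorted pools, here and in every value below.

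Wnt pathway genes were called higher in pHes1_EPC more often than lower. At P1, 11 of 65 (16.9%) were higher, against 6.1% of all genes, and 4 (6.15%) were lower, against 6.79%. At P4, 14 (21.5%) were higher, against 9.85% of all genes, and 2 (3.08%) were lower, against 5.42%. Among the 38 members with a mean FPKM of at least 1 the higher shares were 28.9% at P1 and 36.8% at P4, against 10.7% and 16.9% of the 12178 genes with such a mean, and the lower shares were 7.89% and 5.26%, against 11.3% and 9.41%. The median difference over the 65 members was 0.02 at P1 and 0.02 at P4, against 0 and 0 over all genes, and 24 members did not reach an FPKM of 1 in any library. Over the 38 members it was 0.28 and 0.41, against 0.03 and 0.16 for the 12178 genes, a description only, since a gene high in 1 fraction reaches such a mean more easily. The value of 0.16 means that an expressed gene tended to lie above 0 at P4, and scaling the libraries by the median of ratios brought it close to 0. That scaling turned the shares of all genes at P4 into 7.99% higher and 6.61% lower and left 12 members higher and 2 lower, whereas rescaling to equal totals gave 7.03% and 7.64% with 12 and 3 members, and quantile normalization 7.06% and 7.11% with 12 and 4.

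The 11 members Wnt7b, Fzd1, Fzd5, Fzd7, Ror1, Dkk3, Sfrp1, Sfrp2, Nkd1, Tcf7l1 and Tcf7l2 were higher in pHes1_EPC at both ages, and Apc and Rspo2 were lower at both. The intervals of the fractions were apart at both ages for all 11 of the first group. That holds for nearly every gene called higher. Requiring it changed the higher share of all genes only from 6.1% to 6.07% at P1 and from 9.85% to 9.77% at P4. Fzd6, Lef1 and Lgr4 were called higher at P4 only, and Porcn and Wnt10a lower at P1 only. With 0.1 added in place of 1, Lef1 (1.60) and Lgr4 (1.02) passed the threshold at P1 as well, and Wnt10a at P4 (-2.04). The members called higher at 1 or both ages came from every role in the pathway except ligand processing, as the plot of the fraction differences shows.

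**Figure D1:**
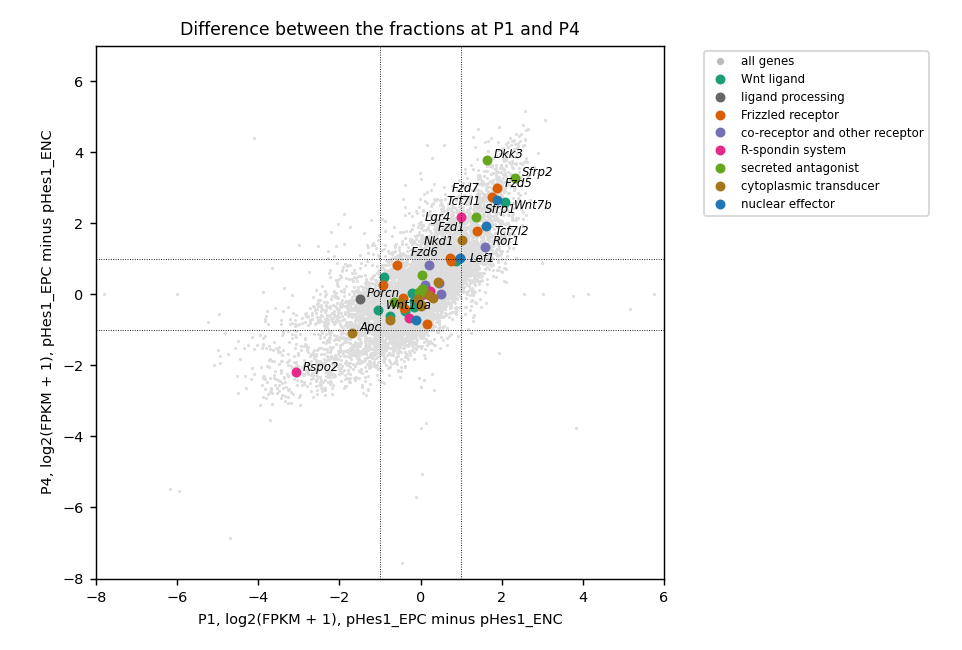
Difference in log2(FPKM + 1), pHes1_EPC minus pHes1_ENC, at P1 (x axis) and P4 (y axis) for all 21829 genes (grey) and the 65 Wnt pathway genes (colored by role), with dotted lines at 1 and -1. The 11 members called at both ages lie in the upper right corner and Apc and Rspo2 in the lower left, and the other labelled members passed the lines at 1 age.

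Promoter sequence was available for 8 of the 11 members higher at both ages (Dkk3, Sfrp1 and Wnt7b had no entry). The 250 bases before each start were searched, on both strands, for the TCF/LEF core CTTTGA, the RBPJ core TGGGAA, and 2 sites bound by Hes proteins, CACGCG and CACGTG. The 4 windows that held a match are printed, because they show where in each promoter it lies, together with that of Fzd5, the most abundant Frizzled gene in both pHes1_EPC libraries, which held none. Sequences run 5′ to 3′ on the strand of the gene and end just before its start, from RefSeq on GRCm38.p6, and capitals mark the match, which lay on the opposite strand in each and so is printed as its reverse complement. The windows are chr5:4758217-4758466 (minus strand) for Fzd1, chr4:100095541-100095790 (plus strand) for Ror1, chr6:72789046-72789295 (minus strand) for Tcf7l1, chr3:83766071-83766320 (plus strand) for Sfrp2 and chr1:64737751-64738000 (minus strand) for Fzd5.
Fzd1: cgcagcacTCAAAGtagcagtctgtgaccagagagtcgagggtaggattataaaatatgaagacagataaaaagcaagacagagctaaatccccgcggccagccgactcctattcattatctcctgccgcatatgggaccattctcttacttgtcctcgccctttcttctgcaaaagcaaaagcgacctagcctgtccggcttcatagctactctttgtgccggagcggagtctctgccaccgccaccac
Ror1: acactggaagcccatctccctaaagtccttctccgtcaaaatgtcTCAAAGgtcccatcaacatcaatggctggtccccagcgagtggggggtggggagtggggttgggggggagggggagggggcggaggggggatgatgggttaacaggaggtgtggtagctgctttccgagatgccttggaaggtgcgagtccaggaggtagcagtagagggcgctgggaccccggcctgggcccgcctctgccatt
Tcf7l1: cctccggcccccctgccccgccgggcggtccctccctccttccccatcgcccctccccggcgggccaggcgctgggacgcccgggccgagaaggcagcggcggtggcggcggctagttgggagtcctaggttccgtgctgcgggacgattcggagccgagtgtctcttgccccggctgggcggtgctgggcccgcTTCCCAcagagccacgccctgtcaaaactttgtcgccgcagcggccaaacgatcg
Sfrp2: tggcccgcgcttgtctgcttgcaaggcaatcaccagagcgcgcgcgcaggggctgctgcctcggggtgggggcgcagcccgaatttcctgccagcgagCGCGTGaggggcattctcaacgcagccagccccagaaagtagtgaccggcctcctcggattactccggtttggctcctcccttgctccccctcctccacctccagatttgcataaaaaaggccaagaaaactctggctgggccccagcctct
Fzd5: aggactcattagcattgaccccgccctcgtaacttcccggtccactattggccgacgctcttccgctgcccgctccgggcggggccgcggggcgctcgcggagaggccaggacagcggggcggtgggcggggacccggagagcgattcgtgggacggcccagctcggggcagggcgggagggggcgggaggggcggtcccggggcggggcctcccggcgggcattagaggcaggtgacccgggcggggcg
The TCF/LEF core was in the windows of Fzd1, first base 242 bases before the start, and Ror1, first base 205 bases before it, and in 13.8% of the 32851 windows of this length in the table. Tcf7l1 held the RBPJ core 55 bases before its start, against 21.6% of all windows, and Sfrp2 held CACGCG 152 bases before its start, against 7.62%. CACGTG was in none of the 9 windows of these genes (Tcf7l2 has a pair of them) and in 6.02% of all. No base of a printed window belongs to more than 1 match, and a match describes the letters and not binding.

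Wnt ligands were few and low, and their make-up differed between the fractions. Of 19 ligand genes, 14 stayed under an FPKM of 1 in every library, and Wnt2 and Wnt3a were listed at 0 in all 4. The summed FPKM of the 19 genes was 11.5 in pHes1_ENC and 14.3 in pHes1_EPC at P1, and 7.69 and 15.3 at P4. Wnt7b, a ligand of the beta-catenin branch (mm9, chr15:85365867-85412251), was 1.15 in pHes1_ENC and 8.11 in pHes1_EPC at P1, and 0.223 and 6.45 at P4. Both pHes1_EPC libraries were far above both pHes1_ENC libraries, with a difference of 2.08 at P1 and 2.61 at P4, which is 7.04 times (range 5.45 to 9.43) and 28.9 times (range 18.1 to 55.1). Its share of the summed ligand FPKM was 9.99% in pHes1_ENC and 56.5% in pHes1_EPC at P1, and 2.9% and 42.2% at P4. The lowest level, in P4 pHes1_ENC, rests on about 21 fragments, a number inferred from the width of its interval.

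Wnt5b, a ligand best known for responses outside beta-catenin, was 5.55 in pHes1_ENC and 2.53 in pHes1_EPC at P1, and 3.51 and 5.31 at P4. It made up 48.2% and 17.6% of the summed ligand FPKM at P1 and 45.7% and 34.7% at P4. Its order between the fractions turned with age, with differences of -0.89 and 0.48, and the intervals were apart at both ages although neither difference was called (with 0.1 added, the P1 difference was -1.10). The P4 difference was smaller, at 0.24, 0.33 and 0.21, after rescaling to equal totals, by the median of ratios and by quantiles. The related Wnt5a was at 1.05, 2.74, 0.772 and 2.38 in the order P1 pHes1_ENC, P1 pHes1_EPC, P4 pHes1_ENC and P4 pHes1_EPC, an order kept wherever 4 values stand together below. It was higher in the EGFP-positive fraction at both ages, with differences of 0.87 and 0.93 that were not called. The P1 difference passed the threshold after quantile normalization (1.04), and with 0.1 added in place of 1 the differences were 1.31 and 1.51. Wnt10a was 1.1 in pHes1_ENC and 0.0217 in pHes1_EPC at P1, and 0.402 and 0.0219 at P4, and its call at P1 (-1.04) was not made after quantile normalization, where the difference was -0.87. With 0.1 added in place of 1, it was also lower at P4 (-2.04). No ratio is given for it because both pHes1_EPC intervals reach 0. Wnt6, which lies 6699 bases from Wnt10a on chromosome 1, was at most 0.0390.

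The other ligands were low in both fractions. Wnt2b was at 0.81, 0.611, 1.01 and 0.583, Wnt3 at 0.874, 0.105, 0.782 and 0.159 and Wnt9a at 0.455, 0.11, 0.605 and 0.148, and all of these were higher in pHes1_ENC at both ages, with differences between -0.17 and -0.76. The remaining ligands, Wnt1, Wnt4, Wnt6, Wnt7a, Wnt8a, Wnt8b, Wnt9b, Wnt10b, Wnt11 and Wnt16, did not exceed 0.162 in any library. Further neighbors on a chromosome were Wnt3a and Wnt9a (16178 bases apart), Wnt9b and Wnt3 (24353) and Wnt10b and Wnt1 (11706), and within each of these pairs at least 1 gene was at 0.155 or less. Porcn, the acyltransferase that attaches the lipid to Wnt proteins, was 15.7 in pHes1_ENC and 4.89 in pHes1_EPC at P1, and 14.4 and 13.1 at P4. Only the P1 pHes1_EPC library stood apart, 3.2 times (range 2.56 to 4.07) below pHes1_ENC (difference -1.50), and the intervals overlapped at P4.

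**Figure D2:**
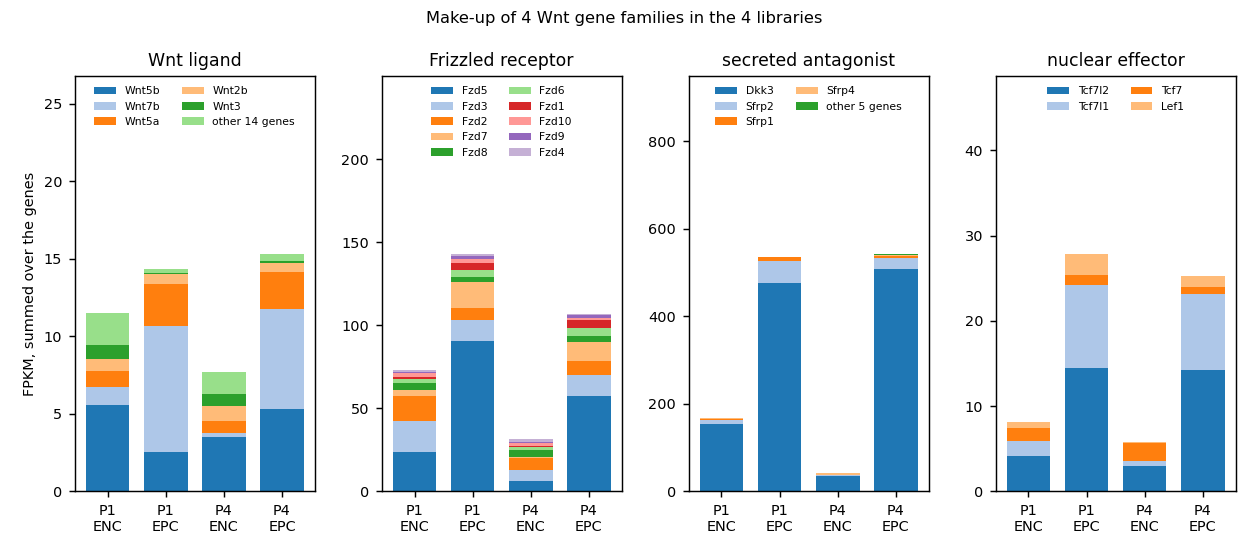
Summed FPKM of 4 families in the 4 libraries, stacked by gene (ENC, pHes1_ENC and EPC, pHes1_EPC; y axes differ between panels). Wnt7b took 56.5% of the ligand sum in P1 pHes1_EPC and 9.99% in P1 pHes1_ENC. Fzd5 was the largest part of the Frizzled sum in both pHes1_EPC libraries. Dkk3 made up at least 86.6% of the sum of the genes listed as antagonists in each library.

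Frizzled genes, which encode the receptors for Wnt ligands, were all expressed, and 3 of 10 were called higher in pHes1_EPC at P1 and 4 at P4, with none lower. Their summed FPKM was 73.1 in pHes1_ENC and 143 in pHes1_EPC at P1, and 31.7 and 107 at P4. Fzd5, whose promoter is printed above (mm9, chr1:64777132-64784324), was 23.8 in pHes1_ENC and 90.9 in pHes1_EPC at P1, and 6.42 and 57.4 at P4. Both EGFP-positive libraries exceeded both EGFP-negative libraries, by 3.81 times (range 3.6 to 4.1) at P1 and 8.94 times (range 8.24 to 9.98) at P4 (differences 1.89 and 2.98). Fzd5 made up 32.6% of the Frizzled sum in pHes1_ENC and 63.6% in pHes1_EPC at P1, and 20.3% and 53.6% at P4. Fzd7 was 4.03 in pHes1_ENC and 16.0 in pHes1_EPC at P1, and 0.853 and 11.3 at P4. It showed the same order of libraries as Fzd5 at a lower level, and pHes1_EPC exceeded pHes1_ENC by 3.96 times (range 3.31 to 4.64) at P1 and 13.3 times (range 10.2 to 17.8) at P4. Fzd1, with a TCF/LEF core in its promoter window, was 1.18 in pHes1_ENC and 4.72 in pHes1_EPC at P1, and 0.828 and 5.27 at P4, with differences of 1.39 and 1.78. The intervals of P1 and P4 overlapped in both fractions.

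Fzd6 was 1.98 in pHes1_ENC and 3.94 in pHes1_EPC at P1, and 1.72 and 4.54 at P4. It was called at P4 only (1.02, against 0.73 at P1), and the P4 difference was 0.80, 0.88 and 0.69 after rescaling to equal totals, by the median of ratios and by quantiles. Fzd2 and Fzd3 were instead highest in P1 pHes1_ENC. Fzd3, known for axon growth and planar polarity, was 18.6 in pHes1_ENC and 12.1 in pHes1_EPC at P1, and 6.69 and 12.7 at P4, so the EGFP-negative library was the higher at P1 and the EGFP-positive library at P4 (differences -0.58 and 0.84). Fzd2 was 14.8 in pHes1_ENC and 7.36 in pHes1_EPC at P1, and 6.91 and 8.42 at P4. Its difference was -0.92 at P1, which passed the threshold with equal totals, and 0.25 at P4, which became -0.01 with equal totals. The low Frizzled genes did not share a direction. Fzd8 was at 4.24, 2.86, 4.14 and 3.78, Fzd10 at 2.83, 1.89, 1.52 and 0.926 and Fzd4, the receptor for Norrin, at 1.03, 1.28, 1.99 and 0.663, while Fzd9 was at 0.687, 1.84, 0.597 and 2.04 with differences of 0.75 and 0.93. Of the 10 Frizzled genes, 6 have 1 exon in their longest coding transcript.

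Of the 5 co-receptors and other receptors, only Ror1 was called. Lrp5 was 20.3 in pHes1_ENC and 23.7 in pHes1_EPC at P1, and 9.33 and 17.4 at P4, and Lrp6 was 11.3 in pHes1_ENC and 15.8 in pHes1_EPC at P1, and 9.02 and 11.6 at P4. The differences were 0.21 and 0.83 for Lrp5 and 0.45 and 0.33 for Lrp6, none of them called. Ryk, an atypical kinase that binds Wnt ligands, was 20.5 in pHes1_ENC and 22.4 in pHes1_EPC at P1, and 24.4 and 29.6 at P4, with differences of 0.12 and 0.27, and the sign of the second turned with equal totals (-0.01). Ror1, a receptor for Wnt5a with a TCF/LEF core in its promoter window, was 2.42 in pHes1_ENC and 9.3 in pHes1_EPC at P1, and 0.823 and 3.59 at P4. It was higher in pHes1_EPC at both ages (1.59 and 1.33), with ratios of 3.85 times (range 2.96 to 4.96) and 4.36 times (range 3.0 to 6.53). Ror2 was at 0.0483, 0.476, 0.0521 and 0.0511.

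In the R-spondin system, the ligand Rspo2 was lower and the receptor Lgr4 higher in pHes1_EPC. Rspo2, a secreted ligand of Lgr receptors (mm9, chr15:42852341-43002364), was 10.4 in pHes1_ENC and 0.352 in pHes1_EPC at P1, and 11.5 and 1.73 at P4. It was lower in pHes1_EPC by 29.5 times (range 19.8 to 49.7) at P1 and 6.66 times (range 5.0 to 8.96) at P4, differences of -3.08 and -2.20, and these were the lowest among the 65 members at each age. Lgr4, an R-spondin receptor, was 24.0 in pHes1_ENC and 48.7 in pHes1_EPC at P1, and 10.1 and 48.4 at P4. The pHes1_EPC level was alike at P1 and P4, and pHes1_ENC was the lower at both, with ratios of 2.03 times (range 1.84 to 2.2) and 4.81 times (range 4.25 to 5.31). The difference of 0.99 at P1 was just under the threshold and became 1.02 with 0.1 added in place of 1, and at P4 it was 2.16. Lgr5 was at 0.52, 0.25, 1.65 and 0.662, and Znrf3, a ligase for Frizzled that is itself a target of the pathway, at 2.7, 3.39, 2.66 and 2.88. Rnf43, Rspo1 and Rspo3 did not exceed 0.0937 in any library.

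Among the genes listed as secreted antagonists, Dkk3, Sfrp1 and Sfrp2 were higher in pHes1_EPC at both ages. Dkk3 is counted there as a Dickkopf family member, and its effect on Wnt signaling was not measured. On the log2(FPKM + 1) scale Sfrp2 at P1 and Dkk3 at P4 had the highest differences of the 65 members, whereas with 0.1 added Wnt7b lay above both (2.71 at P1 and 4.34 at P4). Dkk3, a divergent Dickkopf family member known from Müller glia (mm9, chr7:119259533-119302571), was 153 in pHes1_ENC and 477 in pHes1_EPC at P1, and 36.2 and 509 at P4. It was the most abundant of the 65 members in both pHes1_EPC libraries, at 3.11 times (range 2.99 to 3.22) the pHes1_ENC level at P1 and 14.1 times (range 13.0 to 14.8) at P4, differences of 1.63 and 3.78. Its FPKM lay above its own interval in 3 libraries, as did that of Sfrp2 in 1. For Dkk3 the interval was 444 to 457 in P1 pHes1_EPC and 475 to 488 in P4 pHes1_EPC. The ranges of the ratios come from these intervals, which do not hold those values. Sfrp2, a Frizzled-related protein of retinal progenitors whose promoter window held CACGCG, was 9.39 in pHes1_ENC and 50.9 in pHes1_EPC at P1, and 1.57 and 23.7 at P4. The fractions differed by 5.42 times (range 4.48 to 6.31) and 15.1 times (range 10.1 to 20.9), and levels were lower at P4 than at P1 in both fractions. Sfrp1, a related protein, was 2.51 in pHes1_ENC and 7.99 in pHes1_EPC at P1, and 0.324 and 5.0 at P4. It was higher in pHes1_EPC by 3.19 times (range 2.53 to 3.98) at P1 and 15.4 times (range 10.3 to 25.6) at P4 (differences 1.36 and 2.18), and about 36 fragments lie behind the lowest value. The other 6 antagonists were low, with Sfrp4 at 2.13, 0.98, 3.54 and 2.92, Frzb at 0.0803, 0.112, 0.101 and 0.595, and Dkk1, Dkk2, Sfrp5 and Wif1 at or under 0.132 in each library.

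**Figure D3:**
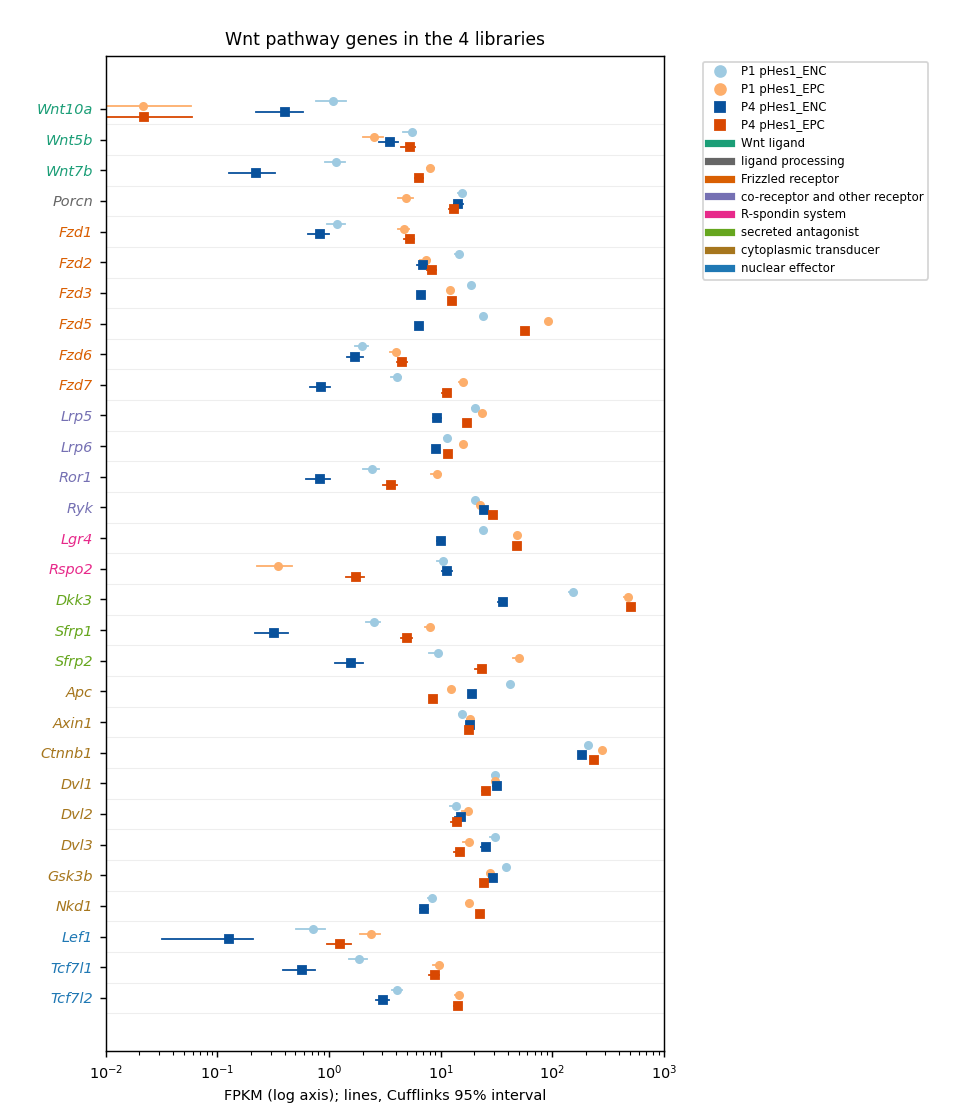
FPKM (log axis) of the 30 members that reached an FPKM of 5 or a called fraction difference, in the 4 libraries, with the Cufflinks 95% interval as a line and gene names colored by role. In Wnt7b, Fzd5, Fzd7, Sfrp1, Sfrp2 and Tcf7l1 both pHes1_EPC points lie to the right of both pHes1_ENC points, and P4 pHes1_ENC lies farthest left.

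Most cytoplasmic transducers were expressed at similar levels in the fractions. Ctnnb1, which encodes beta-catenin, was 208 in pHes1_ENC and 279 in pHes1_EPC at P1, and 186 and 235 at P4, with differences of 0.42 and 0.33, the second of which became -0.09 after quantile normalization. Gsk3b, the kinase that marks beta-catenin for degradation, was 38.8 in pHes1_ENC and 27.5 in pHes1_EPC at P1, and 29.6 and 24.7 at P4 (-0.48 and -0.25), and Axin1, the scaffold of the destruction complex, was 15.5 in pHes1_ENC and 18.2 in pHes1_EPC at P1, and 18.3 and 18.1 at P4 (0.21 and -0.02). Apc was the exception in this complex. Apc, which binds beta-catenin and also microtubules, was 42.0 in pHes1_ENC and 12.4 in pHes1_EPC at P1, and 19.2 and 8.51 at P4, so pHes1_EPC was the lower at each age, by 3.38 times (range 3.15 to 3.58) and 2.26 times (range 2.08 to 2.45) (differences -1.68 and -1.09).

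The Dishevelled genes, which relay the signal from Frizzled, were not called. Dvl1 was 30.8 in pHes1_ENC and 30.9 in pHes1_EPC at P1, and 32.0 and 25.5 at P4, with differences of 0.00 (negative under each of the 3 other scalings, -0.03 to -0.08) and -0.32. Dvl2 was at 13.9, 17.5, 15.4 and 14.1 and differed by 0.32 and -0.12. Dvl3 was the only one lower in pHes1_EPC at both ages, at 31.0, 17.9, 25.6 and 15.0, with differences of -0.76 and -0.74, the second of which became -1.01 with equal totals. Nkd1, a Dishevelled antagonist induced by Wnt signaling, was 8.35 in pHes1_ENC and 18.0 in pHes1_EPC at P1, and 7.12 and 22.5 at P4. Both pHes1_EPC values exceeded both pHes1_ENC values, by 2.16 times (range 1.89 to 2.47) and 3.16 times (range 2.78 to 3.63). Its difference at P1, 1.03, was 0.95 with equal totals and just under 1 by the median of ratios, whereas that at P4 was 1.53. Nkd2 did not exceed 0.253, and Axin2, a negative regulator widely read as a reporter of beta-catenin signaling, was at 4.23, 4.31, 3.9 and 2.99, with differences of 0.02 and -0.30.

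Of the 4 TCF/LEF genes, Tcf7l1 and Tcf7l2 were called higher in pHes1_EPC at both ages. Tcf7l1, mostly a repressor of Wnt targets (mm9, chr6:72576374-72738950), was 1.86 in pHes1_ENC and 9.67 in pHes1_EPC at P1, and 0.572 and 8.97 at P4, with differences of 1.90 and 2.67 and ratios of 5.19 times (range 3.89 to 6.91) and 15.7 times (range 10.6 to 24.9). Tcf7l2 was 4.1 in pHes1_ENC and 14.5 in pHes1_EPC at P1, and 3.03 and 14.2 at P4, with differences of 1.60 and 1.91. Both genes kept nearly the same pHes1_EPC level from P1 to P4, with overlapping intervals. Lef1, mostly an activator, was 0.718 in pHes1_ENC and 2.39 in pHes1_EPC at P1, and 0.126 and 1.27 at P4. Its differences of 0.98 and 1.01 lie on either side of the threshold, and the P4 value became 0.87, 0.92 and 0.90 under equal totals, the median of ratios and quantiles. The P1 value became 1.14 after quantile normalization, where Lef1 was thus called at P1 and not at P4, and 1.60 with 0.1 added in place of 1. The value in P4 pHes1_ENC rests on about 7 fragments. Tcf7 was at 1.44, 1.24, 2.04 and 0.838, so its share of the summed TCF/LEF FPKM was 17.7% in pHes1_ENC and 4.48% in pHes1_EPC at P1, and 35.4% and 3.32% at P4.

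Calls between P1 and P4 were more frequent in the EGFP-negative fraction. In pHes1_ENC none of the 65 was called higher at P4, against 2.77% of all genes, and 9 (13.8%) were called lower, against 5.94%. The 9 were Apc, Dkk3, Fzd3, Fzd5, Fzd7, Lgr4, Lrp5, Sfrp1 and Sfrp2, and all 9 were also called lower under the other 3 scalings. After quantile normalization Lgr5 was called higher and the shares of all genes were 3.46% higher and 4.63% lower. In pHes1_EPC, Porcn and Rspo2 were called higher (3.08% of members, against 4.17% of all genes) and Ror1 and Sfrp2 lower (3.08%, against 2.57%). The first call depended on scaling, since neither gene was called with equal totals and only Porcn by the median of ratios and by quantiles, where the shares of all genes turned to 2.69% and 3.68%, and 2.72% and 3.42%. Over genes with a mean FPKM of at least 1 the median change in pHes1_EPC was 0.19, which the median of ratios brought to 0.01.

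The 11 members higher at both ages had larger ratios at P4. The ratio of pHes1_EPC to pHes1_ENC ran from 2.16 to 7.04 (median 3.85) at P1 and from 3.16 to 28.9 (median 13.3) at P4, and it was larger at P4 for 11 of 11, for 10 with equal totals and for 8 after quantile normalization. In pHes1_ENC their level at P4 was 0.129 to 0.852 times that at P1 (median 0.269), lower in 11 of 11, and in 10 after quantile normalization. In pHes1_EPC it was 0.385 to 1.25 times (median 0.795), lower in 8 of 11, and in 9 to 11 under the other scalings. The same holds widely outside the pathway. Of all 1007 genes higher at both ages, 94.2% were lower at P4 in pHes1_ENC, 66.7% were lower in pHes1_EPC and 87.8% had the larger ratio at P4. These comparisons share libraries, and a low P4 pHes1_ENC value enters both the ratio and the change with age. In pHes1_ENC, P1 exceeded P4 by 7.73 times (range 5.02 to 13.2) for Sfrp1, 5.97 times (range 3.9 to 8.67) for Sfrp2 and 5.16 times (range 2.83 to 10.9) for Wnt7b. Dkk3 differed by -2.05 there, with P1 above P4 by 4.23 times (range 3.88 to 4.51), and was at 1.07 times (range 1.04 to 1.1) the P1 level in pHes1_EPC. The direction of that last change depended on scaling. With equal totals all 11 members, Dkk3 included, were lower at P4 in pHes1_EPC.

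**Figure D4:**
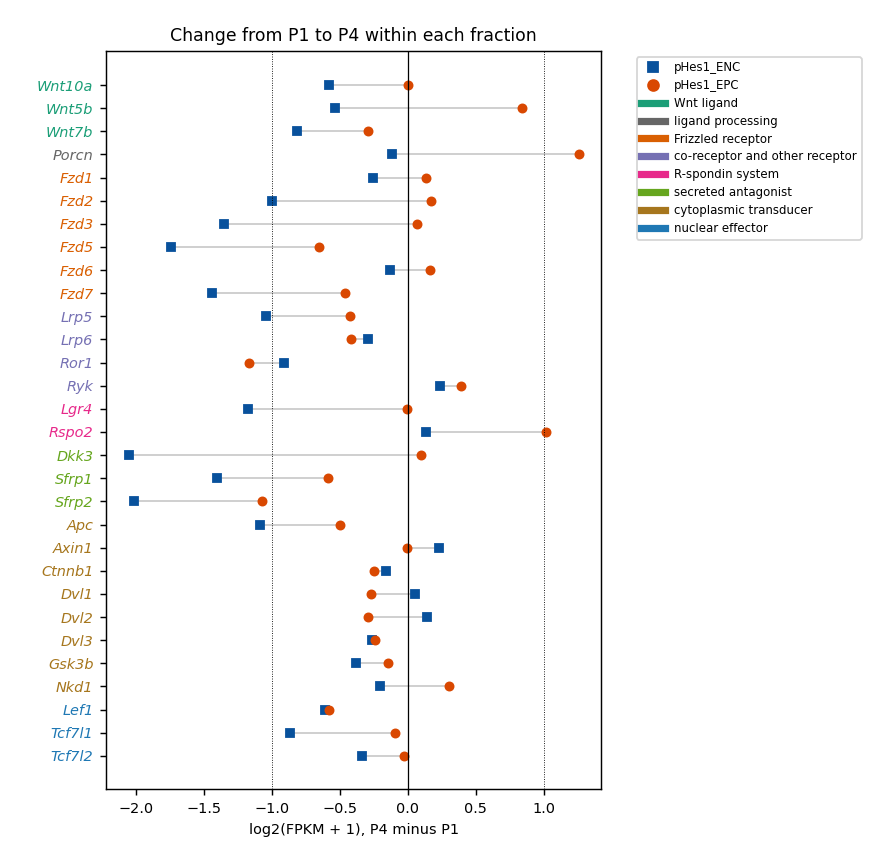
Change in log2(FPKM + 1) from P1 to P4 within pHes1_ENC (squares) and pHes1_EPC (circles) for the same 30 members, with dotted lines at 1 and -1. The pHes1_ENC points of Dkk3 and Sfrp2 lie beyond -2, those of 7 other members beyond -1, and the pHes1_EPC points of Dkk3, Lgr4, Tcf7l1 and Tcf7l2 lie near 0.

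Further genes of the pathway, 75 in all and from lists chosen by function, were called in both directions. Of these, 7 (9.33%) were higher in pHes1_EPC and 9 (12%) lower at P1, against 6.1% and 6.79% of all genes, and at P4 16 (21.3%) were higher and 8 (10.7%) lower, against 9.85% and 5.42%. The 7 higher at P1 were also higher at P4, and 5 of the lower genes were lower at both ages. In the destruction complex list (19 genes) none was called higher, 3 were lower at P1 and 2 lower at P4. The shares of all genes above would leave few calls in a list of this size. Of 5 found genes for Wnt secretion and inactivation, Notum was lower at P1 (-1.24) and 3 were higher at both ages. These 3 were glypicans, cell-surface proteoglycans that bind Wnt ligands: Gpc3 was 4.3 in pHes1_ENC and 25.5 in pHes1_EPC at P1, and 1.39 and 17.9 at P4, Gpc4 was at 4.2, 10.2, 2.29 and 6.98 and Gpc6 at 2.87, 9.88, 0.427 and 4.39. Each was higher in both pHes1_EPC libraries than in both pHes1_ENC libraries, with differences of 2.98, 1.28 and 1.92 at P4.

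Ndp, which encodes Norrin, a ligand of Fzd4 that is not a Wnt, was 1.17 in pHes1_ENC and 4.71 in pHes1_EPC at P1, and 0.819 and 11.5 at P4, with differences of 1.40 and 2.78. Its co-receptor gene Tspan12 was at 3.34, 2.9, 1.82 and 5.84 and was called at P4 only (1.28), while Fzd4 itself was low in each library (at most 1.99, in P4 pHes1_ENC). The planar polarity genes Vangl1 (1.21, 5.8, 0.493 and 3.87) and Celsr1 (0.486, 2.63, 0.0851 and 1.19) were higher in pHes1_EPC at both ages, and Celsr3 (17.7, 0.803, 12.2 and 1.58) and Prickle2 (3.04, 0.204, 3.34 and 0.797) were lower. The Celsr1 difference at P4 was 1.01, just past the threshold. Calls of the further pathway genes were not rechecked under the other scalings. Among nuclear cofactors, the Groucho-type corepressor gene Tle2 was lower in pHes1_EPC at both ages (-2.44 and -2.63), with FPKM of 8.56, 0.756, 28.7 and 3.82, and its relative Tle1 was higher at P4 only (1.41). Pygo1, whose product binds the beta-catenin complex, was at 10.7, 3.81, 6.93 and 2.9, and the corepressor Ctbp2 at 67.6, 32.4, 92.0 and 43.0, both lower at both ages. Apc2, the neural relative of Apc, was at 25.7, 1.76, 4.37 and 3.22, so it was called lower in pHes1_EPC at P1 only (-3.27).

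Genes often read as reporters of beta-catenin signaling did not move together. There were 18 such genes, 7 of them members (Tcf7, Lef1, Axin2, Nkd1, Znrf3, Rnf43 and Lgr5). In pHes1_EPC 2 were called higher and 1 lower at P1, against 6.1% and 6.79% of all genes. At P4 5 were called higher and 0 lower, against 9.85% and 5.42%. In each library 9 or 10 of the 18 were under an FPKM of 1, where a call is hard to reach. Ccnd1, a cyclin with many inputs besides Wnt and also on the list of progenitor markers, was 243 in pHes1_ENC and 1406 in pHes1_EPC at P1, and 28.5 and 532 at P4. Tbx3 was 23.5 in pHes1_ENC and 23.0 in pHes1_EPC at P1, and 4.43 and 28.5 at P4, called at P4 only (2.44), as was Myc (1.02, at 2.69, 1.56, 0.501 and 2.05). Axin2, as given above, was not called at either age, and Sp5 was at most 0.0311 in any library.

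**Figure D5:**
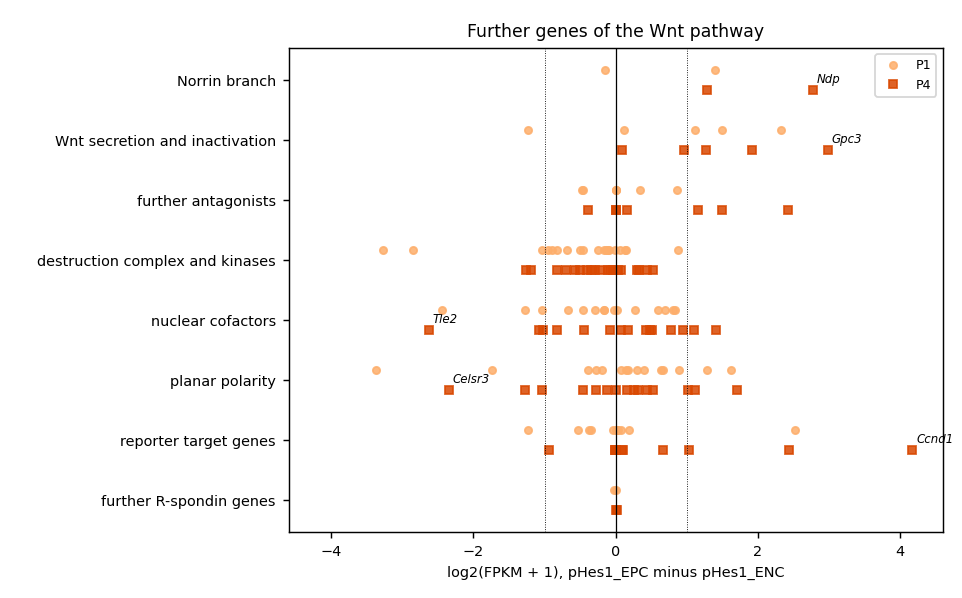
Difference in log2(FPKM + 1), pHes1_EPC minus pHes1_ENC, at P1 (circles) and P4 (squares) for the further pathway genes, a row for each list, with dotted lines at 1 and -1. Points of the destruction complex list lie below 1 at both ages, and Ccnd1 at 4.17 is the highest point at P4.

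Markers of other cell types moved with the fractions as well. Pigment epithelium markers summed to 5.05, 1.96, 6.90 and 46.6 FPKM over 7 genes, with 3 of 7 higher in pHes1_EPC at P4. In P4 pHes1_ENC and P4 pHes1_EPC these were Ttr at 0.308 and 23.1, Dct at 2.84 and 15.0 and Tyr at 0.0491 and 1.34. Rpe65 was at most 0.422. Of 8 endothelial markers, Pecam1, Tek and Tie1 were at most 0.142, Cdh5 at most 0.0705 and Esam at most 0.547. Cldn5 was at 16.3, 3.49, 2.59 and 4.06, lower in pHes1_EPC at P1 (-1.95), Flt1 was at 0.0658, 0.715, 0.11 and 1.41, higher at P4 (1.12), and Kdr, which is also on this list, was at 46.9, 209, 12.0 and 189. Microglia markers summed to 2.04, 8.46, 5.98 and 8.22, with 2 of 6 higher in pHes1_EPC at P1. Astrocyte markers summed to 3.47, 4.44, 6.35 and 12.9, with 1 of 3 higher at P4, and pericyte markers to 0.918, 2.45, 0.251 and 1.91, with 1 of 4 higher at P4. Lens markers summed to at most 0.912. Ciliary margin markers summed to 41.5, 52.9, 21.1 and 53.2, with 2 of 6 higher in pHes1_EPC at P1 and 1 at P4. Red blood cell markers summed to 185 and 502 in pHes1_ENC and to 0.568 and 6.65 in pHes1_EPC, at P1 and P4. Lower in pHes1_EPC were 3 of 5 cone markers at each age, 4 of 5 amacrine and horizontal markers at P1 and 3 at P4, 2 of 5 bipolar markers at P1 and 1 at P4, and 1 of 6 ganglion cell markers at P1 and 0 at P4. The bipolar marker Trpm1 was instead higher in pHes1_EPC at P4 (0.0143 in pHes1_ENC and 1.85 in pHes1_EPC, difference 1.49). The part of these cell types, and of progenitors, Müller glia and rods, in the Wnt pathway values was not tested.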

How the data were processed

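RNA from 4 sorted fractions was sequenced as single-end reads of 36 bases. The authors aligned them to NCBI37/mm9 with TopHat 2.0.8b, with at most 50 positions per read, and deposited the FPKM that Cufflinks 2.1.1 estimated per gene, with a 95% interval. The cDNA was made with random primers and strand was not stated, so overlapping antisense RNA cannot be told apart. Reads and counts were not used here. FPKM were used as deposited. A read with many positions could be shared between related genes.

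The 4 tables (23021 lines) were joined by symbol and locus. Lines of small RNAs (786) were left out, and for 235 symbols with more than 1 line, none of them a member, only the line of highest FPKM was used. Positions start at 1. Differences are of log2(FPKM + 1). Each group is 1 library, so no test was made and no p-value is given. The number of fragments behind a low value was inferred from its interval, taken as 2 SD on each side, and covers counting error only. Members named with values reached an FPKM of 5 in 1 or more libraries or were called at P1 or P4, and further pathway genes were named when called at both ages with an FPKM of 5. Notum, Celsr1, Prickle2, Tspan12, Tle1, Apc2, Tbx3, Myc, Sp5 and low members such as Wnt5a, Axin2 and Tcf7 fall outside this rule and were chosen after their values were seen. The members and all gene lists were chosen with earlier results of these data known. Promoters are from RefSeq (GRCm38.p6), and their coordinates were not mixed with mm9. Of the lists, 3 pathway symbols and 2 amacrine markers had no line. Alternatives were another pseudocount, a filter on low values, 3 other scalings, summed lines and the interval as an added criterion. Python 3.11.15, numpy 2.4.6, pandas 2.3.3 and matplotlib 3.10.9 were used.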

Additional observations from a re-analysis of the deposited data

Results flagged for a closer look

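Fzd3, a Frizzled receptor known for axon growth, differed between the fractions in opposite directions at the 2 ages. The difference of pHes1_EPC from pHes1_ENC was -0.58 at P1 and 0.84 at P4 on the log2(FPKM + 1) scale, past 0.5 on each side of 0. With 1 library in each group, the difference between the ages was not tested. The FPKM in pHes1_EPC was 12.1 at P1 and 12.7 at P4, with overlapping intervals, and that in pHes1_ENC was 18.6 and 6.69. The signs held under every scaling tried, with -0.62 to -0.67 at P1 and 0.57 to 0.67 at P4.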

How the results depend on the processing

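Each group holds 1 library, and no replicate numbers pair the libraries. The fractions could be paired by age, but neither that analysis nor a fit of fraction and age together was made. No library could be left out. No called member changed direction under any alternative. With 0.1 in place of 1 added to the FPKM, 10 members (15.4%) were lower in pHes1_EPC at P1 and 9 (13.8%) at P4, now above the 11.3% and 8.99% of all genes, and 16 and 18 were higher (24.6% and 27.7%, against 9.42% and 14.7%). Then 1 was higher and 15 lower at P4 than P1 in pHes1_ENC (1.54% and 23.1%, against 4.62% and 11.5% of all genes). In pHes1_EPC 6 were higher and 3 lower at P4 (9.23% and 4.62%, against 7.85% and 5.32%). A ratio above 2 without a pseudocount counted 20 higher and 15 lower at P1 (30.8% and 23.1%, against 13.8% and 17.5% of all genes). At P4 it counted 25 and 13 (38.5% and 20%, against 20.1% and 14.6%). With age it counted 4 higher and 21 lower in pHes1_ENC (6.15% and 32.3%, against 8.69% and 18.4%). In pHes1_EPC it counted 14 and 8 (21.5% and 12.3%, against 13.8% and 10.2%). Members with a few fragments then count, and so do better covered ones just past 2-fold. At P1 these include Lgr4 (2.03 times higher in pHes1_EPC) and Fzd2 (2.01 times lower). Keeping genes with a mean FPKM of at least 1 moved the median difference to 0.28 at P1 and 0.41 at P4. Members higher at P4 than P1 in pHes1_EPC numbered 0 with equal totals, 1 by the median of ratios and 1 by quantiles. The shares were 0%, 1.54% and 1.54%, against 2.13%, 2.69% and 2.72% of all genes. Quantile normalization also gave 4 members lower in pHes1_EPC at P4 (6.15%, against 7.11%, with Fzd4 and Tcf7 added). It gave 1 member higher with age in pHes1_ENC (1.54%, against 3.46%). Of the 60 differences of the 30 named members, 37 to 49 stayed close to the value reported under each of the 3 scalings, and 60 with summed lines or with genes of full quantification status. Values under an FPKM of 1 rest on few fragments, so the absence of a call there says little.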
